A study of Mus musculus with 2 samples.

Results

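The genes followed here are 10 genes that are best known from the liver: the apolipoproteins Apoa1, Apoa2, Apoa4, Apob and Apoe, the plasma proteins Ttr, Alb and Serpina1a, the major urinary protein Mup20 and the urea cycle enzyme Otc. They were taken by name, and every probe whose accession belongs to one of them was used, which gave 15 probes in 42 spots out of 39417 probes for 20653 named genes. The study asked how overexpression of FTO, an RNA and DNA demethylase linked to obesity, alters gene expression in beta cells, and Apoa4, Otc and Mup20 were followed further by quantitative PCR. MIN6 is a beta cell line from an insulinoma of a transgenic C57Bl/6 mouse, used at passages 15 to 20. Cells received either the lentivirus pLVX-IRES-ZsGreen carrying mouse FTO (called FTO) or the empty pLVX-IRES-ZsGreen lentivirus (called control). Both carried the green fluorescent reporter of the vector, both were exposed to polybrene, both grew in the same serum-containing medium, and green fluorescence was looked at 48 h after transduction, while the time of RNA extraction is not given in the sources used here. Each condition was measured on 1 one-colour array, so every difference below compares 2 arrays, has no replicate check and carries no p-value.

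Hepatocytes secrete most plasma proteins, and apolipoproteins are the protein coats that carry lipids through the blood as lipoprotein particles. Apolipoproteins A sit mainly on high density lipoprotein, apolipoprotein B is the backbone of very low density lipoprotein and chylomicrons, and apolipoprotein E is the ligand that brings remnant particles to their receptors. Some of these genes are also active outside the liver. Transthyretin is made in pancreatic islets and the choroid plexus, apolipoproteins A and B in the small intestine, apolipoprotein E in macrophages and astrocytes, and ornithine transcarbamylase in the intestinal epithelium.

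Primer pairs used for quantitative PCR of Apoa4, Otc and Mup20 are shown first, because these are the genes that differed most between the arrays. They are printed 5′ to 3′ and no base is marked.
Apoa4 forward primer: gggagagatgttcaacaaggct
Apoa4 reverse primer: cagggtgctcataaaggagttg
Otc forward primer: ggctgcgtctgactggacat
Otc reverse primer: tccactttctattctctgcctctg
Mup20 forward primer: tttgtcgagtacatccatgtcttg
Mup20 reverse primer: tattcaccagccttttctgttttg

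Promoter windows of Alb and Serpina1a follow, because the liver and islet transcription factor HNF4 is known to act through short sequences near the start of such genes, and both windows hold the letters searched. The windows run from 250 bases before to 50 bases after the annotated start (RefSeq, GRCm38.p6). Capitals mark CAAAGT, from the site of HNF4, or its reverse complement.
Alb promoter window, GRCm38.p6 chr5:90460620-90460919, + strand: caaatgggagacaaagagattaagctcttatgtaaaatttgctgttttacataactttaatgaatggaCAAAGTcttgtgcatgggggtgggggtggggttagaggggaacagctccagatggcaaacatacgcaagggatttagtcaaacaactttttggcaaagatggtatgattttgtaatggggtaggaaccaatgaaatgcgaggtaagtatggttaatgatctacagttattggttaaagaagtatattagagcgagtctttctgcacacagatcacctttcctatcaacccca
Serpina1a promoter window, GRCm38.p6 chr12:103863570-103863869, - strand: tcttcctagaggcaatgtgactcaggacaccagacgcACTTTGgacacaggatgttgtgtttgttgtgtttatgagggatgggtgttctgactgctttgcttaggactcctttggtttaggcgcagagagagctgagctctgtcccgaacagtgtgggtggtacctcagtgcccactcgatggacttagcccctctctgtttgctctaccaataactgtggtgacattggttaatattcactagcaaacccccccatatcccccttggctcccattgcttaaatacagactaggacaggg
CAAAGT stood at -182 to -177 in Alb, and on the other strand at -213 to -208 in Serpina1a, with the start counted as 0. In Apoa4 it stood at -182 to -177 as well. The motif was found on neither strand in the windows of Apoa1, Apoa2, Apoe, Apob and Otc. No window of Ttr or Mup20 was searched. Of the 32851 promoter windows counted for comparison 14.4% held CAAAGT, and a match describes the sequence alone. The gene of the factor gave a bright signal on these arrays. Hnf4a read 13052 on FTO and 9690 on control, a log2 difference of 0.00 after normalization.

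A spot was called well above background when the image software flagged its signal as clearly higher than its local background, and this held for 82.0% of the probes on the FTO array and 84.8% on the control array. The dimmest probe well above background read 14.0 intensity units on FTO and 10.7 on control. The FTO array was brighter as a whole, with a median signal of 292 against 237, so that raw signals of most genes were higher on FTO, and quantile normalization removed that shift. The only probe of Fto itself (NM_011936) had a signal of 7301 under the label FTO and of 5179 under the label control. Once normalized, Fto differed by 0.06 on the log2 scale, less than the 0.20 that the spots' own error estimates give. Whether that probe lies in the part of Fto carried by the vector is not given in the sources used here, so the check neither bears out the labels nor goes against them, and every direction rests on the labels. Brightness between probes also depends on the probe, so positions on an array are given as percentiles and are not levels of one gene against another. In these bulk samples fewer expressing cells and less RNA per cell cannot be told apart.

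All 10 genes were detected, that is, well above background with some probe on 1 array or both, and 8 of them were detected on both. Apoa1 and Otc passed on the control array only. Ttr, Serpina1a and Apoa2 lay in the upper part of the signal range, Apoe in the middle, and Alb, Apob, Apoa4 and Mup20 in the lower part. By measured signals the brightest probe of 3 genes, Apoa4, Mup20 and Otc, was over 2-fold lower on FTO, and no gene was over 2-fold higher. The signal of Otc on FTO was not well above background, and with such signals raised to the detection limit 2 genes remained, Apoa4 and Mup20. Over all 18507 named genes tested, 2.69% differed by over 2-fold, 1.60% being lower on FTO and 1.09% higher. Apoa4, Mup20 and Otc had been picked from these same arrays for their decrease, so their count is not independent evidence of a direction. Among the other 7 genes 0 passed 2-fold in either direction, and their log2 differences ran from -0.19 to 0.09.

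**Figure D1:**
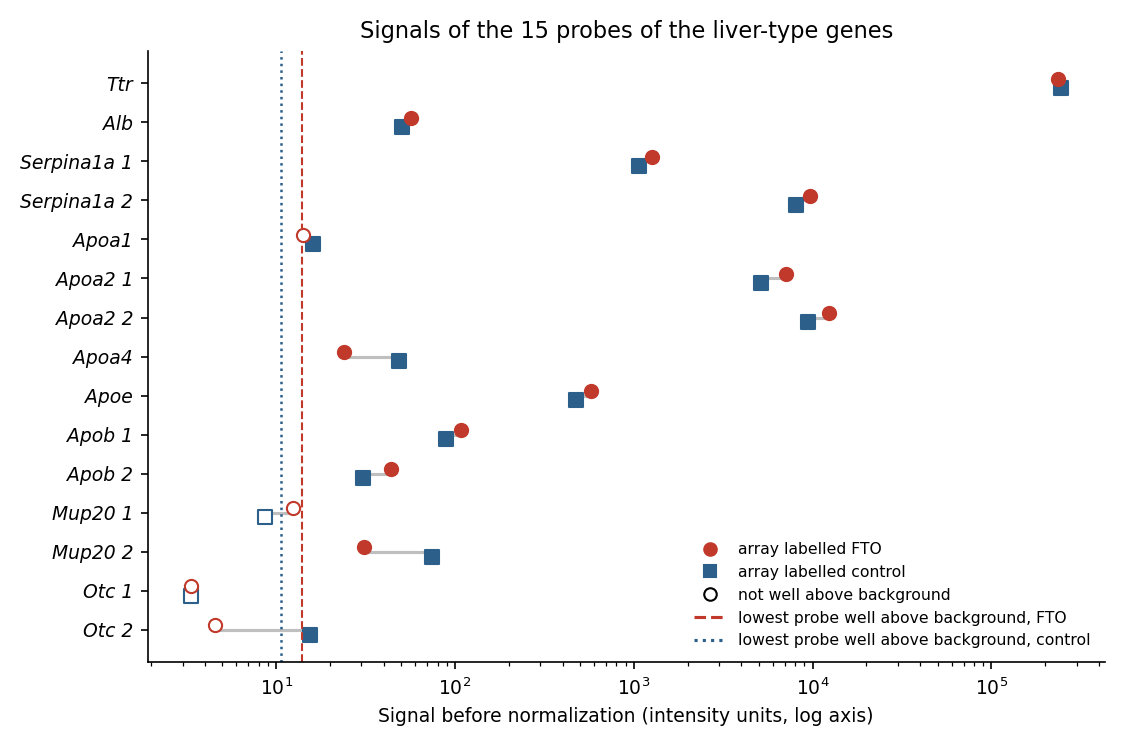
Signal of each of the 15 probes before normalization (log axis, intensity units) on the array labelled FTO (red circles) and the array labelled control (blue squares), with open symbols for signals not well above background and vertical lines at the dimmest probe well above background, 14.0 on FTO and 10.7 on control. Ttr lies far to the right, and the first probe of Otc and the FTO signal of its second probe lie at the left edge. Apoa4, the second probe of Mup20 and the second probe of Otc are the ones with clearly less signal on FTO.

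The carrier proteins of the blood were first considered. Transthyretin (Ttr, NM_013697), which carries thyroid hormone and retinol-binding protein, read 235859 on FTO and 245870 on control. These signals lay at percentiles 99.7 and 99.9 of the arrays, so Ttr was among the brightest probes on both. The log2 difference of Ttr was -0.15, with a spot error of 0.20, and it lay between -0.49 and -0.15 over the other ways of processing. The lowest value came from scaling each array by its 75th percentile, under which other very bright probes read lower too, Ins2 at -0.64, Iapp at -0.56 and Gcg at -0.35. Albumin (Alb, NM_009654), the main plasma protein and a defining product of hepatocytes, read only 56.7 on FTO and 50.6 on control. Both spots were well above background, at percentiles 33.7 and 33.5. The log2 difference of Alb was 0.03 (spot error 0.23), ranging from -0.26 to 0.03 over the alternatives. Alb was therefore detected at a low signal on both arrays, with a difference far below its error.

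Serpina1a (NM_001252569) encodes alpha-1-antitrypsin, the plasma inhibitor of neutrophil elastase. Its first probe read 1260 on FTO and 1069 on control, and its second probe read 9629 and 8033. The log2 differences were -0.15 and -0.17, each with a spot error of 0.20, so both probes gave the same small value within error. Mice carry several nearly identical Serpina1 genes, and a probe of one can read the mRNA of another. Among its relatives the brightest probes of Serpina1c, Serpina1d and Serpina1e differed by -0.06, -0.26 and -0.06, and Serpina1f by -0.21. Which of these copies supplied the signal cannot be read from the arrays.

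The exchangeable apolipoproteins differed widely in signal. Apolipoprotein A-II (Apoa2, NM_013474), the second protein of high density lipoprotein, was bright on both of its probes. The first read 7136 on FTO and 5160 on control, and the second read 12425 and 9448. After normalization the log2 differences of Apoa2 were 0.04 and -0.04, with a spot error of 0.20 each. Apoa2 lay at percentiles 78.3 to 84.4 and did not differ beyond spot error on either probe.

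Apolipoprotein A-I (Apoa1, NM_009692), the main protein of high density lipoprotein and the activator of the cholesterol-esterifying enzyme LCAT, was printed in 10 spots per array. On FTO the spots ran from 9.50 to 24.5 with a median of 14.2, and on control from 11.7 to 19.9 with a median of 16.5. The 2 sets of spots overlapped, and only 3 of 10 spots were well above background on FTO against 10 of 10 on control. The means differed by -0.19 on the log2 scale (spot error 0.45). This is 1.14-fold lower on FTO, and raising dim signals to the detection limit left it unchanged. Over the alternatives the difference of Apoa1 ran from -0.61 to 0.21, so its direction was not settled. Apoa1 was thus at the detection limit on these arrays, unlike Apoa2.

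Apolipoprotein E (Apoe, NM_009696) was also printed in 10 spots. The spots read 533 to 637 on FTO, with a median of 577, and 458 to 489 on control, with a median of 473. All were well above background, and the spot SD was only 0.07 and 0.03 on the log2 scale. Raw signals were higher on FTO at all 10 places, as was the array as a whole, and after normalization Apoe differed by -0.05 (spot error 0.20). Of these spots 3 lay in the array area with lost signal described below, where they read 533 to 585 on FTO and 458 to 489 on control. With 10 spots per array Apoe was one of the most closely measured of the genes, and its difference was within the error estimate of a single spot.

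**Figure D2:**
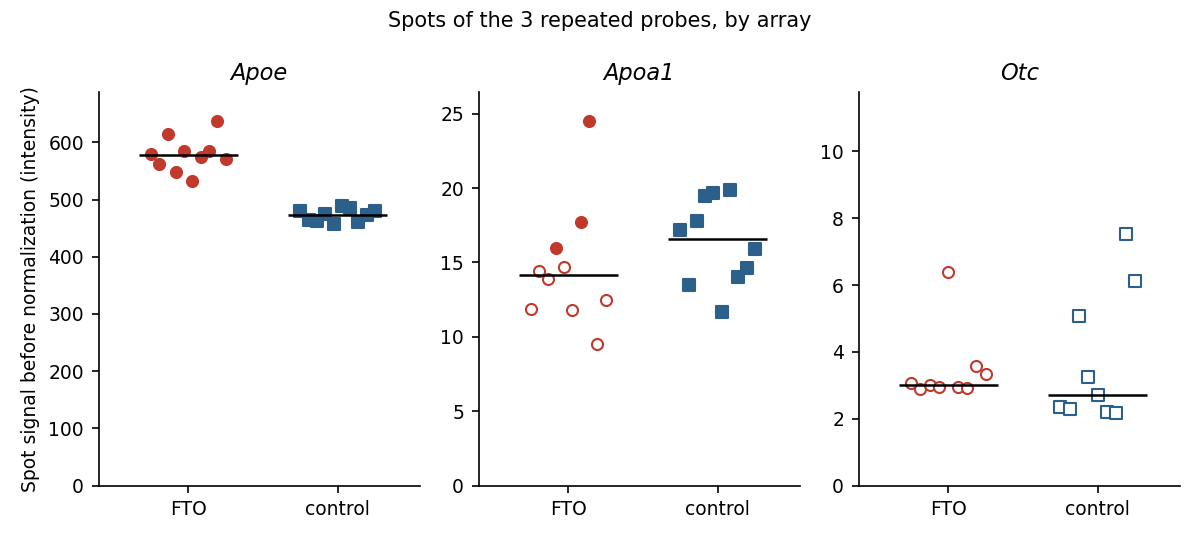
Signal of every unflagged spot before normalization (intensity units, axes from 0, a different axis for each gene) for the probes of Apoe, Apoa1 and Otc that were printed 10 times, with filled symbols for spots well above background and a line at the median. Spots of Apoe are tight and all filled, Apoa1 has 3 filled spots on FTO and 10 on control, and no spot of Otc is filled.

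Apolipoprotein A-IV (Apoa4, NM_007468), an intestinal and hepatic apolipoprotein that is linked to satiety and chylomicron formation, had 1 probe. It read 24.1 on FTO and 48.7 on control, at percentiles 22.9 and 32.9, and both spots were well above background. The log2 difference of Apoa4 was -1.11 with a spot error of 0.27, which is 2.15-fold lower on FTO and more than the error of the spots. It was -1.44 after 75th percentile scaling and -1.18 after cyclic loess, but -0.34 after normexp background correction, which adds an offset and pulls dim signals together. Apoa4 and Apoa1 lie in one cluster of neighbouring genes on chromosome 9, in the order Apoa1, Apoc3, Apoa4, Apoa5. The other members of that cluster did not share the difference of Apoa4: Apoc3 differed by 0.04 and Apoa5 by 0.22, with spot errors of 0.21 each. In the Apoe cluster on chromosome 7, Apoc1 differed by 0.23, and Apoc4 was undetected on both arrays.

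Apolipoprotein B (Apob, NM_009693), the structural protein of chylomicrons and very low density lipoprotein, had 2 dim probes. The first read 108 on FTO and 88.8 on control, and the second read 44.0 and 30.8. All 4 spots were well above background, at percentiles 26.6 to 41.3. The log2 differences were 0.09 (spot error 0.21) and 0.43 (spot error 0.26). The second value was 0.05 with normexp and 0.09 with 75th percentile scaling, and neither probe of Apob reached 2-fold under any setting tried. Mttp, the transfer protein that loads lipid onto apolipoprotein B, read 2748 and 1898 and differed by 0.14. Apobec1, the enzyme that edits the Apob mRNA, read 21142 and 16769 and differed by -0.11.

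The major urinary protein Mup20 (NM_001012323), a lipocalin that male mice excrete as a pheromone and pheromone carrier, had 2 probes that gave different answers. The first read 12.5 on FTO and 8.66 on control, and neither spot was well above background. The second read 31.2 on FTO and 74.3 on control, both well above background, at percentiles 26.2 and 38.5. The log2 difference of the second probe was -1.37 with a spot error of 0.25, or 2.59-fold lower on FTO. The 75th percentile scaling gave -1.67, cyclic loess -1.40 and normexp -0.60. The Mup genes are nearly identical copies and a probe may bind several of them. Of the other copies detected on both arrays Mup19 differed by -0.96, Mup5 by -0.86, Mup21 by -0.15, Mup17 by -0.11, Mup4 by -0.03, Mup2 by -0.00 and Mup18 by 0.20. The probes of Mup19 and Mup4 lay, as did that of Mup20, in the array area with lost signal described below.

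Ornithine transcarbamylase (Otc, NM_008769), the mitochondrial enzyme that makes citrulline from ornithine in the urea cycle, was the dimmest of the genes. Its probe printed in 10 spots averaged 3.35 on both arrays, and 0 of its 9 unflagged spots were well above background on FTO or on control. Its other probe had 1 spot, which read 4.54 on FTO and 15.5 on control and was well above background on control only. The measured log2 difference of that probe was -1.69 with a spot error of 1.19, and -0.05 after normexp. The FTO signal lay under the detection limit, and raised to that limit it left Otc 1.11-fold lower on FTO, a log2 difference of -0.16. That raised difference ran from -0.58 to -0.03 over the alternatives. The control spot of 15.5 had an error estimate of 3.05, and some undetected signals lay above the limit. No minimum decrease of Otc therefore follows from the arrays. The measured difference of Otc thus came from 1 spot near the limit of detection, and no spot of the repeated probe was well above background. By a less strict flag, for a significantly positive signal, 1 of its 9 spots used passed on FTO and 6 of 9 on control.

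**Figure D3:**
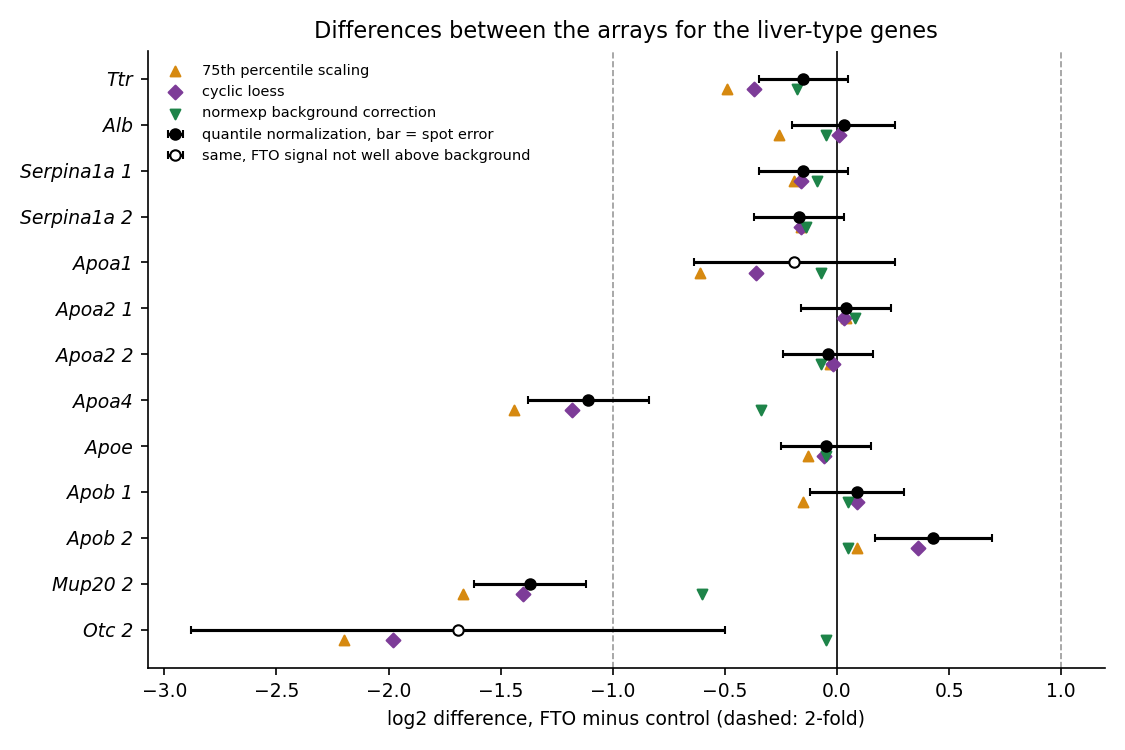
Log2 difference between the arrays, FTO minus control, for the 13 probes detected on 1 array or both, after quantile normalization (black, bars are the error from the spots' own error estimates, open where the FTO signal was not well above background) and after 3 other ways of processing (coloured). Apoa4, Mup20 and Otc lie beyond the dashed 2-fold line at -1.11, -1.37 and -1.69 after quantile normalization and at -0.34, -0.60 and -0.05 after normexp, while the other probes lie between -0.19 and 0.43 after quantile normalization and reach -0.61 for Apoa1 and -0.49 for Ttr after 75th percentile scaling.

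How these differences stood against the rest of the array was examined next. Differences over 2-fold were more frequent among dim probes. Counting probes that both arrays detected, they were found in 4.09% at mean log2 signals of 3 to 5, in 3.42% from 5 to 7, in 1.62% from 7 to 9, and in 0.246% above 11. Apoa4 and Mup20 fall in the range from 5 to 7. The probes of Ttr and Apoa2 and the second probe of Serpina1a lie above 11, where the SD of all differences was 0.16, and the first probe of Serpina1a lies from 9 to 11, where it was 0.22. Over all 33838 probes tested, 2.18% were over 2-fold lower on FTO. The split between directions depended on scaling, since 40.4% of the genes over 2-fold were higher on FTO after quantile normalization and 17.1% after 75th percentile scaling. The median of all genes was 0.01 and -0.06 under these settings.

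**Figure D4:**
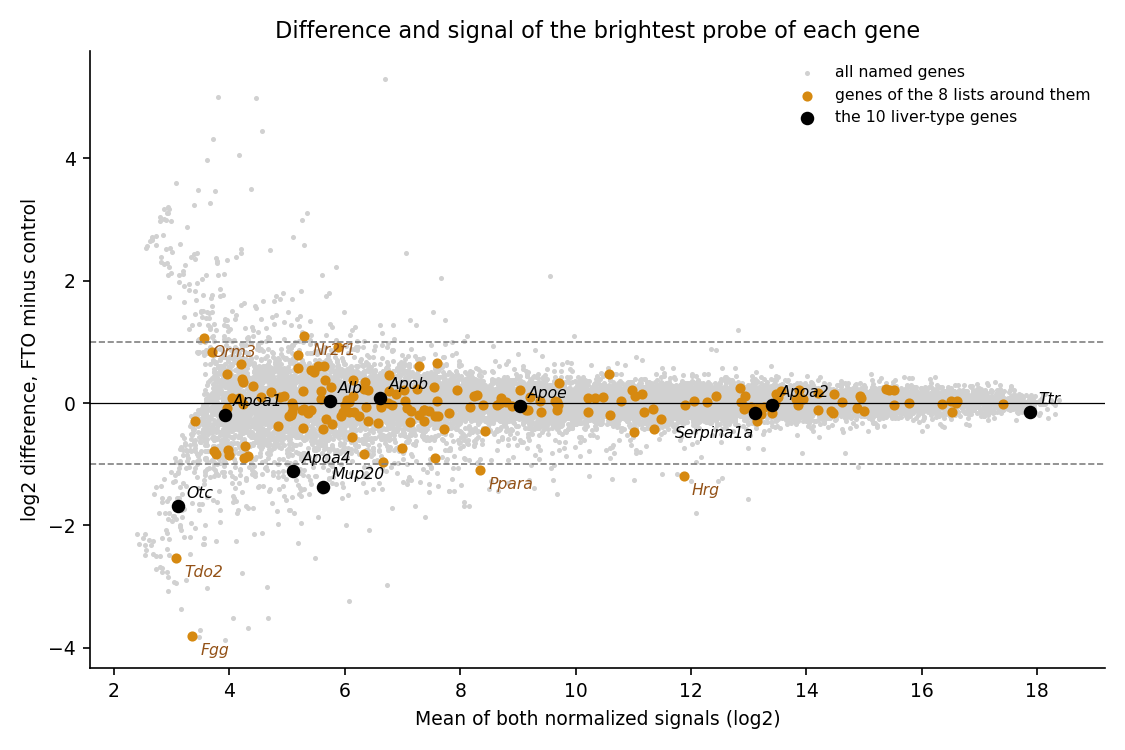
Log2 difference, FTO minus control, against the mean log2 signal of the brightest probe of each named gene (grey), of the genes in 8 lists around the liver-type genes (orange) and of the 10 liver-type genes (black), with dashed lines at 2-fold. The spread of grey points narrows from left to right, Otc, Apoa4 and Mup20 lie at the dim end below the lower line, and the brighter genes lie near 0.

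The place of the spots on the array was then compared. Many probes are printed 10 times over the array, so a region where such spots read low can be seen. For this the surface was cut into 35 rectangles (blocks), 76 rows by 17 columns each, and 79 of 399 repeated probes had a signal in the range used. A block was taken as one of lost signal where over 15% of these spots read low for their probe. On the FTO array 6 adjoining blocks met this rule, with 29.0% of spots low against 1.86% in the other blocks. Since the blocks were chosen on these spots, that contrast follows from the choice. On the control array 0.690% of spots read low in these 6 blocks. The brightest probes of Apoa4 and of Mup20 both lay in 1 of these blocks, a few spots apart. Among dim probes with a log2 signal of 4 to 7, 9.09% were over 2-fold lower on FTO inside the blocks and 0.809% outside. Around Apoa4 the median difference of 176 nearby dim probes was -0.24, with 12.5% of them over 2-fold lower, and around Mup20 it was -0.17 over 169 probes, with 8.88%. Less these local medians Apoa4 differed by -0.87, which is under 2-fold, and Mup20 by -1.21, which is over it. The part of the place on the array in these differences was not tested. On the control array 2 blocks met the same rule, each with 18.2% of low spots, and Alb lay in one of them. Without the blocks of either array, 7 of the 10 genes remained, and 1 of them, Otc, was over 2-fold lower by its measured signals.

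**Figure D5:**
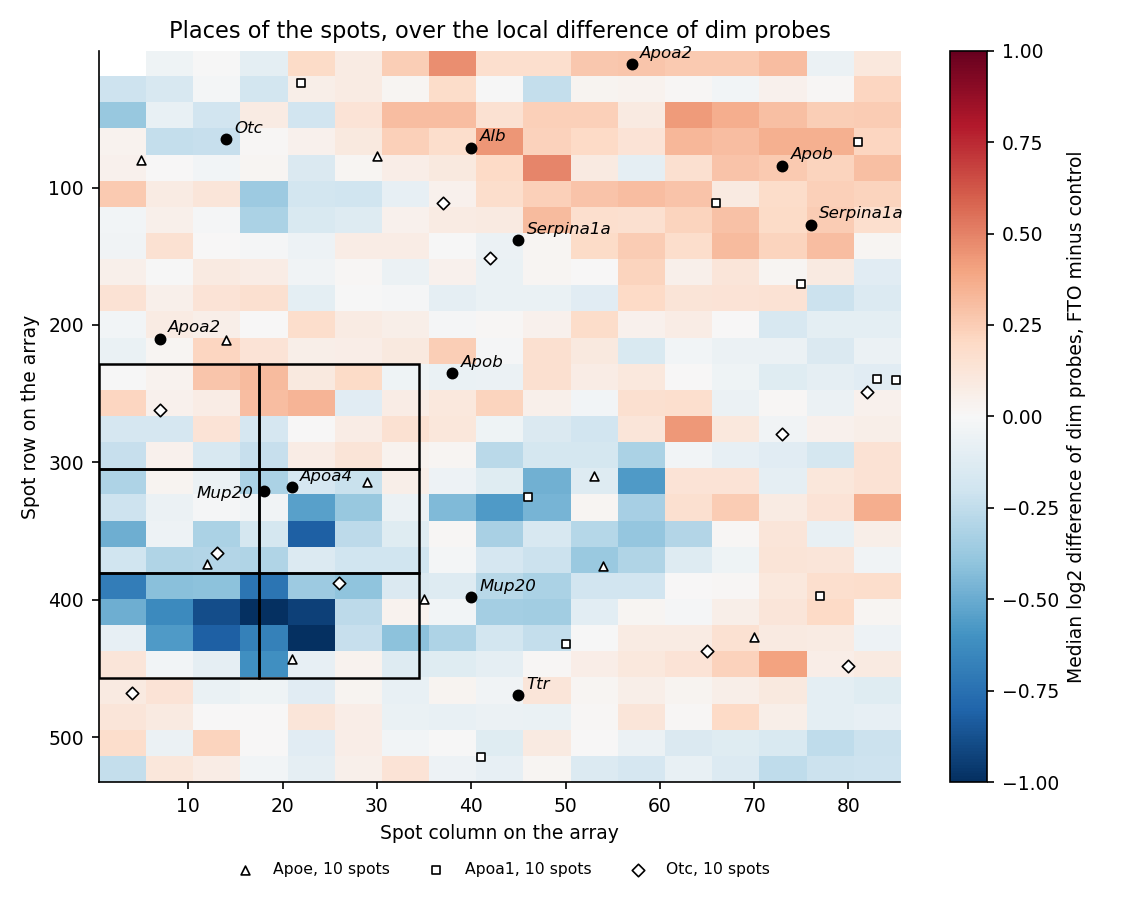
Places of the spots of the liver-type genes by row and column on the array, over the median log2 difference, FTO minus control, of dim probes in small squares (blue is lower on FTO), with the 6 blocks of lost signal outlined. Apoa4 and the brighter probe of Mup20 lie beside each other in an outlined block, while Ttr, Alb, Apob, Apoa2, Serpina1a and the single probe of Otc lie outside.

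Genes around the members were counted by the same rule, with the brightest probe of each gene. Of the apolipoproteins of high density lipoprotein and other exchangeable ones, 13 of 14 on the array were tested, 1 was over 2-fold lower (Apoa4) and 0 were higher, with a median of 0.03. The brightest of them were Clu, a chaperone-like apolipoprotein, at 109607 on FTO and 88782 on control, and Apoa2. None of 28 genes of apolipoprotein B assembly and lipoprotein metabolism passed 2-fold in either direction, and their median was 0.00. In that list P4hb, the disulfide isomerase subunit of the lipid transfer complex, read 184252 and 165137, and Lsr, a lipoprotein receptor, read 112653 and 89106. Of 15 urea cycle and ammonia genes 1 was lower (Otc) and 0 were higher, with a median of 0.01. Cps1, the enzyme before Otc in the cycle, read 71.5 and 63.0 and differed by 0.02, and Ass1 and Asl, the enzymes after it, differed by -0.06 and 0.01. The brightest genes of that list were Odc1, the first enzyme of polyamine synthesis, and Glud1, glutamate dehydrogenase, which differed by -0.01 and 0.08. The single calls of the apolipoprotein and urea cycle lists are the picked genes themselves.

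Of the major urinary proteins and lipocalins, 17 of 19 were tested, 1 was lower (Mup20) and 1 higher (Orm3, an acute phase lipocalin), and the median was -0.12. Orm3 read 17.2 on FTO and 8.36 on control, where it was not well above background. With that control signal raised to the detection limit Orm3 was 1.61-fold higher on FTO. Retinol-binding protein Rbp4, the partner of Ttr in blood, was the brightest of that list, at 29168 and 21293, and differed by 0.01. Lcn2, an iron-siderophore binding lipocalin, read 2015 and 2117 and differed by -0.47. Of the hepatic serpins 23 of 25 were tested and 0 passed 2-fold, with a median of -0.06. Serpina1c, at 11193 and 8693, and Serpina1a were the brightest of them.

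Of the albumin family and other plasma proteins, 42 of 48 were tested, 2 were lower (Hrg and Fgg) and 0 were higher, with a median of -0.06. Fgg, the gamma chain of fibrinogen, read 3.08 on FTO and 37.2 on control, was well above background on control only and lay in the blocks of lost signal. With the FTO signal raised to the detection limit Fgg was 2.75-fold lower. The vitamin D binding protein Gc, next to Ttr the brightest of that list, read 57574 and 37633 and differed by 0.21. Of 37 hepatocyte enzymes and transporters 33 were tested and 1 was lower, Tdo2, which degrades tryptophan. Tdo2 read 3.55 and 19.8 and was 1.44-fold lower with its FTO signal raised to the detection limit. The median of that list was 0.01, and its brightest genes were the alcohol dehydrogenase Adh1, at 104430 and 82076, and the bile acid transporter Slc10a1.

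Of 31 transcription factors of liver-type genes 30 were tested, 1 was lower (Ppara) and 1 higher (Nr2f1), and the median was -0.04. Foxa2, a pioneer factor of liver and islet, read 64241 and 48526 and differed by 0.00, and Cebpb, a factor of the acute phase response, read 36147 and 29226 and differed by -0.13. Ppara, the fatty acid sensor, read 244 and 424 on its brightest probe, a difference of -1.10 with a spot error of 0.20, in the blocks of lost signal. Its other probes were dim. One read 18.9 and 18.6 and was not well above background on FTO. The other read 19.8 and 11.4, was not well above background on control and was 1.72-fold higher on FTO by its normalized signals. Nr2f1, an orphan nuclear receptor, read 60.1 and 26.1, a difference of 1.09, and 0.41 on its other probe, and both probes lay in those blocks.

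The cells were checked against their own markers and those of other cell types. All 20 beta cell markers were well above background on both arrays, 0 passed 2-fold, and their median was -0.02. Their summed signal was 2604034 on FTO and 2535765 on control, led by Ins2 at 276722 and 320363 and Chga, a granule protein, at 273283 and 267309. Of the other islet hormone genes 6 of 6 were detected, led by Gcg and Ppy, and 0 passed 2-fold. Of 15 hepatocyte markers 13 were tested, 1 was lower (Tdo2), and 2 were undetected on both arrays. Their summed signal was 102440 on FTO and 91342 on control, of which Slc10a1 alone gave 99621 and 88943. The next brightest hepatocyte marker, Tat, read 1644 and 1431. The enterocyte markers, 11 of 11 tested, summed to 52764 and 42029, mostly from Lct at 46343 and 37046 with Cdx2 next at 2817 and 2273. Of these 2 were over 2-fold lower and 0 were higher, against 1.60% lower over all named genes tested. The 2 are Apoa4 and Otc, which belong to that list and had been picked from these same arrays for their decrease. In that list 8 of 11 differences lay below 0, with a median of -0.09. Macrophage markers summed to 2636 and 2352, led by Itgam and Apoe, and fibroblast markers to 998 and 765, led by Col1a1 and Col1a2, with 0 genes over 2-fold in either list. For comparison, 51.6% of all named genes tested lay above 0 after normalization, with a median of 0.01. All 6 macrophage markers tested lay below 0, with a median of -0.23. They ran from -0.30 for Csf1r to -0.05 for Apoe, with a spot error of 0.20 for each of these 2. The fibroblast markers had a median of 0.00. Exocrine markers summed to 25772 and 21466, and 1 of them was over 2-fold higher and 0 were lower. The higher one was Cftr, with a measured log2 difference of 1.39. It read 20.6 on FTO and 7.88 on control, where it was not well above background. With that control signal raised to the detection limit Cftr was 1.90-fold higher on FTO. Of the 13 exocrine markers tested 9 lay below 0, the lowest being Ctrb1 at -0.91, and their median was -0.15. The sums were taken before normalization, the hepatocyte and enterocyte sums come mostly from 1 gene each, and the FTO array was the brighter. The part of these cell types in the differences of Apoa4, Mup20 and Otc was not tested.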

How the data were processed

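Total RNA of each condition was labelled with Cy3 and hybridized to 1 whole mouse genome oligonucleotide array. Per the labels the images were read with Agilent Feature Extraction 11.0.1.1, and the authors quantile normalized both arrays in GeneSpring. The deposited spot tables hold signal intensity per spot, already background-subtracted by that software, with an error estimate and flags coded as other values (0 or 1). The deposited series table holds the authors' normalized log2 values for 33870 probes.

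Here log2 of the processed signal was averaged over the spots of a probe, leaving out outlier flags (148 spots on FTO, 141 on control), and quantile normalized (R 4.3.3, limma 3.58.1, Python 3.11.15). The result differed from the authors' log2 table by 0.00585 on average over 33862 probes. No spot was saturated. A probe was tested if well above background on either array, and a repeated probe if over 50% of its spots were. The brightest probe stood for a gene. Where 1 array was not well above background, a signal below the dimmest probe that was (the detection limit) was raised to it. A fold so obtained is no strict minimum, since some undetected signals lay above that limit, as 18.9 did for a Ppara probe on FTO. The spot error joins the error estimates of both arrays and covers neither biological nor dye variation. For a repeated probe it is averaged over the spots and is not reduced for their number. Gene names came from accessions through RefSeq, which named 27224 probes. With 1 array per condition nothing was tested: counts past 2-fold are descriptions whose precision is limited by having 2 arrays. The script was checked on simulated data.

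Alternatives were 75th percentile scaling, cyclic loess, normexp with an offset of 50 (on median spot signals), the authors' table, outlier spots kept, other filters and leaving out the blocks of lost signal. A block counted as such where over 15% of spots of repeated probes (log2 signal 4.5 to 8) read more than 0.5 below their probe's median. Nearby dim probes lay within 20 rows and 8 columns, with a log2 signal of 4 to 7. Subtracting their median was chosen after the data were seen. Named are all 10 genes, of each list the 2 brightest genes and those past 2-fold, the 2 brightest of each marker list, and Fto. Some genes of the lists are not reported here. Other genes named, the clusters, paralogs, partners in a pathway and Hnf4a, were chosen after their values were seen. The genes and lists were chosen with earlier results of these data known.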

Additional observations from a re-analysis of the deposited data

How the results depend on the processing

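Of the 10 genes all were detected whichever background flag was used. The count over 2-fold was 3 of 10 after quantile normalization, 0 with normexp and 1 without the blocks of lost signal, and it was 2 where dim signals were raised to the detection limit or both arrays had to be well above background. Less the median of nearby dim probes Apoa4 gave -0.87 and Mup20 -1.21. Apoa4 gave -1.44 with 75th percentile scaling and -0.34 with normexp, and Mup20 gave -1.67 and -0.60. No difference of these genes past 2-fold changed its direction. Over all probes 1177 passed 2-fold, against 132 with normexp, 597 without the blocks, 490 well above background on both arrays, 743 with dim signals raised and 2176 with no filter. Over all genes 201 were higher and 296 lower, against 17 and 38 with normexp, 125 and 606 with 75th percentile scaling, 129 and 133 without the blocks, 77 and 140 well above background on both arrays, 136 and 178 with dim signals raised and 421 and 470 with no filter. Medians of 3 lists moved under 75th percentile scaling, to -0.42 for the lipocalins, -0.26 for the plasma proteins and -0.23 for the hepatocyte enzymes. The cause was not tested. Signal near background limits Apoa1 and Otc. No paired analysis was possible because each condition has 1 array.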

Other observations

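Histidine-rich glycoprotein (Hrg), a plasma protein that binds heparin and plasminogen, had the highest signal of the genes over 2-fold lower in the 8 lists. It read 2850 on FTO and 4914 on control, with a log2 difference of -1.19 and a spot error of 0.20. Its single spot lay outside the blocks of lost signal, and Hrg gave -1.21 with 75th percentile scaling and -1.17 with normexp. Unlike Apoa4, Mup20 and Otc, its value hardly moved with the processing.

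Alpha-fetoprotein (Afp), the fetal counterpart of albumin and its neighbour on chromosome 5, read higher on FTO at all 9 places with an unflagged spot on both arrays, though it did not reach 2-fold. Its spots read 82.1 to 95.0 on FTO and 36.6 to 44.4 on control before normalization, so they did not overlap. The FTO array was brighter as a whole, however. Before normalization the spots of Apoe did not overlap either, at a log2 difference of -0.05, while those of Apoa1 did. Afp differed by 0.91 (spot error 0.23) on the log2 scale, and by 0.62 with 75th percentile scaling and 0.41 with normexp. In the 2 spots of Afp that lay in the blocks of lost signal the values were 83.6 to 95.0 on FTO and 41.2 to 44.3 on control. Afp was chosen after its values were seen.

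The bile acid transporter Slc10a1, a hepatocyte marker, had 2 probes that disagreed in brightness. One read 99621 on FTO and 88943 on control, and the other 31.1 and 42.3. Their log2 differences were -0.15 and -0.54, and which probe reflects the mRNA of Slc10a1 cannot be read from the arrays.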
